A study of Homo sapiens with 4 samples.

Results

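Huh7 is a cell line from a human hepatocellular carcinoma, and the comparison described here is that of its SCD knockdown library with its control library. The knockdown cells carry shSCD1#13, a short hairpin RNA delivered by lentivirus that targets the transcript of SCD, and the control cells carry a non-target control, NTC, delivered in the same way. Both were stably transduced cells selected with puromycin, grown in DMEM-HG with serum, and both therefore carry a viral insertion and a resistance gene. The knockdown rests on 1 hairpin, and the labels give no time between transduction and harvest. Whole-transcriptome RNA-seq gave 1 library per group, so no difference below has a replicate check: every value is a description of these 2 libraries, and no test was run. The same pair was also sequenced from PLC/PRF/5, another liver cancer line, which brings the series to 4 libraries.

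The genes described are those with at least 1 TPM (an abundance scaled to transcript length and to a fixed library total) in at least 1 of the 2 Huh7 libraries. They were 13485 of the 25343 symbols listed. A difference is given as log2((knockdown TPM + 1)/(control TPM + 1)), called the log2 ratio, and a gene is counted as 2-fold higher or lower where this ratio is at least 1 or at most -1. That is a rule of size. The added 1 shrinks the ratio of genes with low TPM. TPM keeps no depth, so the number of reads behind a value is unknown, no counting error can be given, and an exact 0 is written as listed at 0.

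Stearoyl-CoA desaturase, the product of SCD, sits in the endoplasmic reticulum and places a double bond into saturated acyl chains, turning stearate and palmitate into oleate and palmitoleate. These monounsaturated chains are built into triglycerides, phospholipids and cholesterol esters, and SCD is abundant in liver and in many liver cancers. The hepatocyte itself is a secretory epithelial cell: it makes albumin, lipoproteins, complement and clotting factors, detoxifies drugs and bile acids, and answers inflammatory cytokines through NF-kB and STAT3.

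The text turns first on a family that moved together, the CXC chemokines, small secreted proteins that attract leukocytes. The promoters of the 4 most abundant of them in the knockdown library are printed here because these 4 genes lie in a gene cluster and each carry a short shared sequence near the start. The windows are from RefSeq (GRCh38.p14, 250 bases before to 50 bases after the start of the gene): chr4:73740319-73740618 on the + strand for CXCL8, chr4:73836428-73836727 on the + strand for CXCL6, chr4:73998628-73998927 on the - strand for CXCL5 and chr4:73869143-73869442 on the + strand for CXCL1. Each is printed 5′ to 3′ on the strand of the gene, and capitals mark matches to GGNNTTTCC, a spelling of the NF-kB (kB) motif, searched on both strands.

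CXCL8: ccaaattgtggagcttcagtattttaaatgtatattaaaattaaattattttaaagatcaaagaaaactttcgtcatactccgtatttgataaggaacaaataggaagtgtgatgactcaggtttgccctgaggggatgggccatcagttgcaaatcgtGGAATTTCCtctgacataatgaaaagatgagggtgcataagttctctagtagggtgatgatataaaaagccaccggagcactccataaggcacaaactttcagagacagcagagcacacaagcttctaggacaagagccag
CXCL6: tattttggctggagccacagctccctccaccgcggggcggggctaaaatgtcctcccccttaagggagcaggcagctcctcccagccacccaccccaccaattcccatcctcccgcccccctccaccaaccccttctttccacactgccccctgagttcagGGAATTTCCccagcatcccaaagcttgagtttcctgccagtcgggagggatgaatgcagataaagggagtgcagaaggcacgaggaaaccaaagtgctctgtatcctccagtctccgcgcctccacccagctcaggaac
CXCL5: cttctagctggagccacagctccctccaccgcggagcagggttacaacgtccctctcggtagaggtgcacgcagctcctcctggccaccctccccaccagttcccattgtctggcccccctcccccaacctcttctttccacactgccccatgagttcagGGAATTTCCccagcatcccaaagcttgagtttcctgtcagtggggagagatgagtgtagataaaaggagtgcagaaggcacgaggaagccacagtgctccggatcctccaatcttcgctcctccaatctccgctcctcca
CXCL1: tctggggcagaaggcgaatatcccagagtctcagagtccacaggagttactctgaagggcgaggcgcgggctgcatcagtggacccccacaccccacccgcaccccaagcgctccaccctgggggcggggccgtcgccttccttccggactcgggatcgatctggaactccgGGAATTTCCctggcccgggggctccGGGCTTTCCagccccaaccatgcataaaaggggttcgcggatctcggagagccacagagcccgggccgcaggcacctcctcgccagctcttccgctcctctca

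The match began 91 bases before the start in CXCL8, 89 in CXCL6 and 90 in CXCL5, and at 78 and 53 bases before it in CXCL1. Of the 10 CXC genes considered, 9 had a promoter entry and 7 of these held a match (CXCL1, CXCL2, CXCL3, CXCL5, CXCL6, CXCL8 and CXCL10), while CXCL12 and CXCL17 held none. Among all 9856 promoters of genes considered, 667 (6.77%) held a match. The share was 11.5% (32 of 279) for genes 2-fold higher in the knockdown library and 6.94% (10 of 144) for those 2-fold lower. The motif was chosen for the CXC family, and its 7 members with a match are counted among the 32. Of 418 higher and 207 lower genes, only those 279 and 144 had a promoter entry, and no test was run. The AP-1 motif, spelled TGANTCA, was in 4.48% of all promoters, in 10.8% (30 of 279) of those 2-fold higher and in 6.94% (10 of 144) of those 2-fold lower. A TEAD motif, spelled GGAATG, was in 1080 of the 9856 promoters, in 41 of the 279 (14.7%) and in 18 of the 144 (12.5%). Matches of different motifs may overlap, and a match is a stretch of letters, not a binding site.

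The metallothioneins, small cysteine-rich proteins that bind zinc and copper, were all higher in the knockdown library. A core of the metal response element, spelled TGCACNC or TGCGCNC and searched on both strands, is in capitals in the promoters of its most abundant member, MT2A (chr16:56608334-56608633, + strand), and of the member with the highest log2 ratio, MT1H (chr16:56669564-56669863, + strand).

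MT2A: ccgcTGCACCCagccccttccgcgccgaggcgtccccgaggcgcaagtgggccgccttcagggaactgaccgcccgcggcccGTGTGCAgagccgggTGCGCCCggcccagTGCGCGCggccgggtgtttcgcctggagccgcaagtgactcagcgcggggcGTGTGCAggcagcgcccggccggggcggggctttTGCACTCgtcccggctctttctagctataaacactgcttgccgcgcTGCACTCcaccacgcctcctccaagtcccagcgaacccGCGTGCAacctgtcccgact
MT1H: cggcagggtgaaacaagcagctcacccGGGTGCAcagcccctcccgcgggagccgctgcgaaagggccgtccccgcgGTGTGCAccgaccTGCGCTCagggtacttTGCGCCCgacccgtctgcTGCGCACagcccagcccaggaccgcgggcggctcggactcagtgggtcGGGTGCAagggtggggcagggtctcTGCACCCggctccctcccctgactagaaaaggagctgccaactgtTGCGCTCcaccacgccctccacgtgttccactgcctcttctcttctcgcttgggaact

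MT2A and MT1H each held 8 matches and MT1X held 4. The core was common, in 38.7% of the 9856 promoters, while 76 of them (0.771%) held 4 or more matches. The limit of 4 is the count of MT1X, so that all 3 metallothioneins with a promoter entry pass it was given with the limit. MT1A, MT1E, MT1F, MT1G, MT1L and MT1M had no promoter entry.

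SCD stood at 1755 TPM in control cells and at 137 TPM in knockdown cells, a log2 ratio of -3.67. The knockdown library kept 7.81% of the control level, and SCD passed from rank 72 to rank 1349 among all symbols by TPM. SCD5, the other human stearoyl-CoA desaturase, was low in both libraries, at 3.51 and 2.86 TPM. A bulk library cannot tell apart lower RNA in every cell from fewer cells that express a gene.

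The libraries carried the RNA of liver cells. All 16 hepatocyte lineage markers reached 1 TPM, with summed levels of 37330 TPM (control) and 33888 TPM (knockdown). All 7 erythroid markers stayed under 1 TPM, as did 7 of 8 endothelial markers, and KDR, TEK and CLDN5 were listed at 0 in both. Among 13 leukocyte markers 6 were listed at 0 in both libraries, PTPRC stood at 0.3 and 0.99 TPM, and the list's sum of 1795 and 1032 TPM was nearly all lysozyme, LYZ (1773 and 1008 TPM). Of 11 fibroblast and stellate markers 5 reached 1 TPM (sum 62.0 and 79.9 TPM), and ACTA2, THY1 and DES were listed at 0. Of 7 cholangiocyte markers 6 reached 1 TPM, with a sum of 515 and 851 TPM, most of it KRT19 and SOX9. The part of such cells in the results below was not tested.

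The 2-fold limit was passed upward by 418 genes (3.10% of those considered) and downward by 207 genes (1.54%). A log2 ratio above 0 was found for 60.2% of genes and one below 0 for 39.7%, and the median was 0.08. Genes at least 4-fold higher numbered 48 and those at least 4-fold lower 25. The share past 2-fold was 8.40% among genes with a mean of 3 to 10 TPM and 1.96% among those of 300 TPM or more, where the median ratio was -0.08. Of the higher genes 52, and of the lower genes 25, are uncertain, because another gene holds most of their sequence or because their symbol matched no transcript. An example is the near-identical pair SULT1A3 and SULT1A4, both at 8.67 TPM in the control library and at 27.1 and 0.1 TPM in the knockdown library. At the size limit, CDKL1 (1.29 and 3.58 TPM) was just inside and FOSL2 (4.7 and 10.4 TPM) just outside. At the limit of 1 TPM, CATSPER3 (0.89 and 1.0 TPM) was just inside and BRSK2 (0.47 and 0.99 TPM) just outside.

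**Figure D1:**
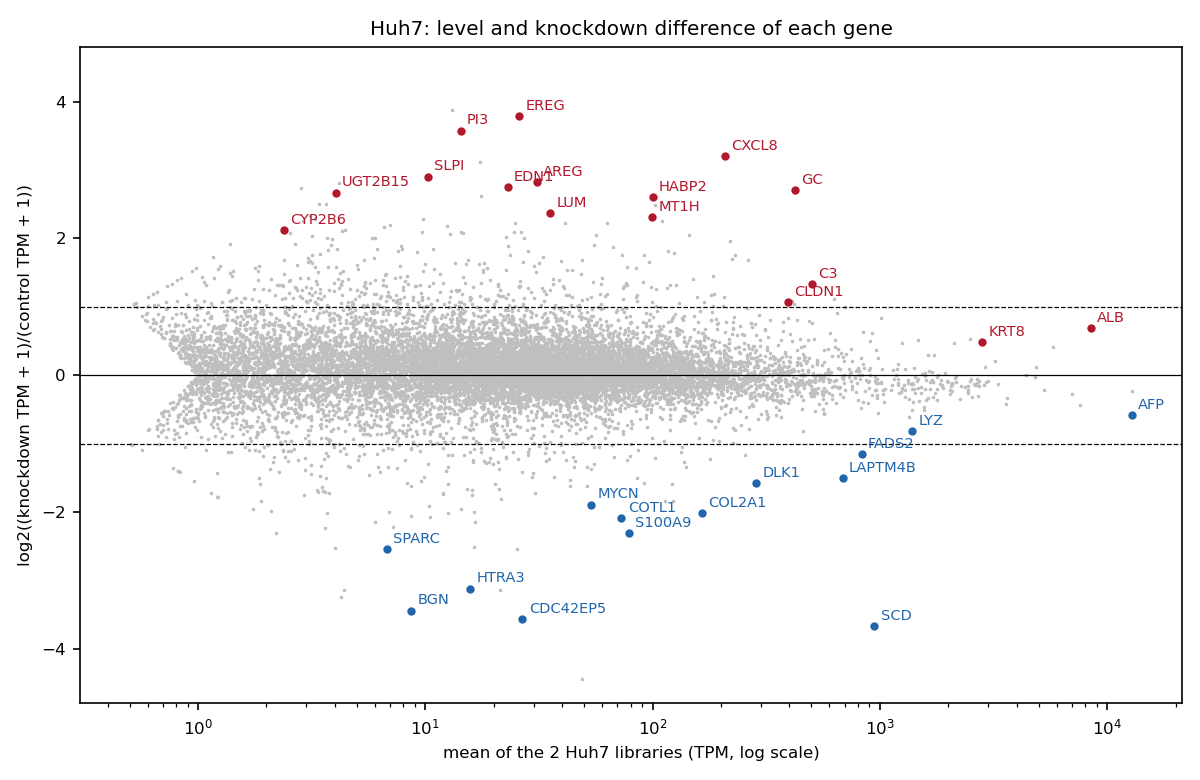
Each point is 1 of the 13485 genes considered, with the mean TPM of the 2 Huh7 libraries on a log scale against the log2 ratio; dashed lines mark the 2-fold limits. SCD stands alone as an abundant gene with a ratio of -3.67, while the genes with the highest ratios, such as EREG and PI3, come from low control levels.

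The largest single-gene gain and loss in TPM were ALB and AFP, though the 23 plasma carriers considered summed to 31704 and 31797 TPM, and the 84 cytosolic ribosomal proteins to 148431 and 134281 TPM. ALB, albumin, stood at 6498 and 10479 TPM and alone made 4.55% of all TPM gained, while AFP, its fetal homologue, stood at 15421 and 10302 TPM and made 5.84% of all TPM lost. The quotient of AFP to ALB was 2.37 in the control and 0.98 in the knockdown library. GC, the vitamin D carrier of the same family, stood at 112 and 736 TPM (log2 ratio 2.71) and AFM, afamin, at 0.98 and 2.49 TPM. Other large gains were KRT8, the keratin of simple epithelia (2347 and 3284 TPM), AMBP, the precursor of alpha-1-microglobulin and bikunin (2032 and 2944 TPM), SPINK1, a trypsin inhibitor (1208 and 1733 TPM), and MYL12B, a myosin light chain (725 and 1292 TPM). Large losses beside AFP and SCD were the ferritin chains FTH1 (8707 and 6457 TPM) and FTL (13834 and 11819 TPM), GAPDH (4118 and 3069 TPM), the lysosomal membrane protein LAPTM4B (1018 and 357 TPM), TF, transferrin (1619 and 1058 TPM), and LYZ. MTRNR2L2, MTRNR2L8 and MTRNR2L9, nuclear genes that resemble mitochondrial ribosomal RNA, were among the largest gains (MTRNR2L2 at 4942 and 6586 TPM). MTRNR2L2 is uncertain because another listed gene holds most of its sequence. A search for genes of the mitochondrial genome among the symbols listed found none. Whether reads of mitochondrial RNA enter the values of these nuclear genes was not tested.

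Chemokines and the NF-kB axis were higher. Of 10 CXC chemokine genes considered, 8 passed the 2-fold limit upward and none downward, against 3.10% and 1.54% of all genes, with a median log2 ratio of 1.29 beside 0.08 over all genes. CXCL8, the main neutrophil attractant, stood at 39.7 and 375 TPM, here and below the control library first. CXCL5, CXCL6, CXCL1, CXCL2 and CXCL3, which act on the same receptors, stood at 88.8 and 349, 22.9 and 88.0, 43.0 and 105, 6.61 and 14.7, and 3.86 and 21.1 TPM. CXCL10, an attractant of T cells, stood at 5.65 and 13.7 TPM, and CXCL12, the ligand of CXCR4, at 11.57 and 30.01 TPM. The members outside were CXCL16 (60.8 and 66.6 TPM), a membrane-bound chemokine, and CXCL17 (1.03 and 0.17 TPM). CXCL2 kept its direction but not the 2-fold size after rescaling by the median ratio (0.97), and neither CXCL2 (0.76) nor CXCL10 (0.82) kept it with a pseudocount of 5. Summed over the family, the control level was 284 TPM and the knockdown level 1064 TPM.

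All 5 CC and CX3C chemokines considered had a ratio above 0 and none reached 2-fold. CCL20, an attractant of CCR6-bearing lymphocytes, was the most abundant chemokine of the control library, at 731 and 1122 TPM. CX3CL1 stood at 54.1 and 78.6, CCL15 at 5.51 and 10.7, CCL5 at 9.96 and 13.4, and CCL28 at 0.54 and 1.36 TPM. Chemokine receptors did not share this shift: of 5 considered, 3 lay above 0 and the median was 0.08.

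Of the 10 NF-kB subunits and kinases, 8 lay above 0 with a median of 0.55, and RELB, the subunit of the noncanonical pathway, was past 2-fold (14.6 and 37.6 TPM). NFKB2, its partner, stood at 27.8 and 53.8 TPM, IKBKE at 9.19 and 17.0, IKBKG at 14.95 and 26.4, BCL3 at 37.5 and 58.9, and RELA at 54.7 and 72.2 TPM. Of 14 feedback genes, which NF-kB induces and which restrain it, 13 lay above 0. TNFAIP3, a ubiquitin-editing enzyme, stood at 12.4 and 29.4 TPM, BIRC3 at 1.27 and 3.53, NFKBIA at 102 and 154, and NFKBIZ at 44.9 and 73.1 TPM. TNFAIP3 was just under 2-fold (0.98) with a pseudocount of 5. Among 6 cytokines linked to the pathway 3 were 2-fold higher, beside 3.10% of all genes. They were IL18, a cytokine of the interleukin-1 family, at 37.7 and 183 TPM, LTB, lymphotoxin beta, at 2.85 and 12.9 TPM, and IL32 at 82.0 and 220 TPM. The median of the 6 was 1.09, but 14 of the 20 cytokines listed were under 1 TPM, and with no minimum of TPM the median was 0.005. IL1R1, the interleukin-1 receptor, stood at 8.77 and 17.5 TPM.

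Of the CXC chemokine genes, 6 are consecutive among the genes considered on chromosome 4, near the albumin family and the EGF receptor ligands. Genes not considered are left out of this order. In the order of the RefSeq gene table, 17 considered genes run from GC to AREG. Of these, 9 passed the 2-fold limit upward and 0 downward, beside 3.10% and 1.54% of all genes. The ends of the stretch were chosen after the values were seen, and both GC and AREG are among the 9. EREG and AREG, epiregulin and amphiregulin, stood at 2.63 and 49.2 TPM and at 6.89 and 54.9 TPM. Other genes of the same stretch did not all follow: ANKRD17 stood at 40.3 and 41.5, COX18 at 11.9 and 13.4, MTHFD2L at 1.78 and 1.29, and ADAMTS3 at 4.54 and 2.33 TPM. Over windows of 15 consecutive considered genes across the genome (11928 windows), medians ran from -0.30 to 1.04. The highest was shared by overlapping windows of this stretch, that from ADAMTS3 to AREG among them. Medians of the 23 chromosomes ran from 0.01 to 0.13. The window from CES1 to MT1X on chromosome 16, which holds metallothionein genes, had a median of 0.77.

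**Figure D2:**
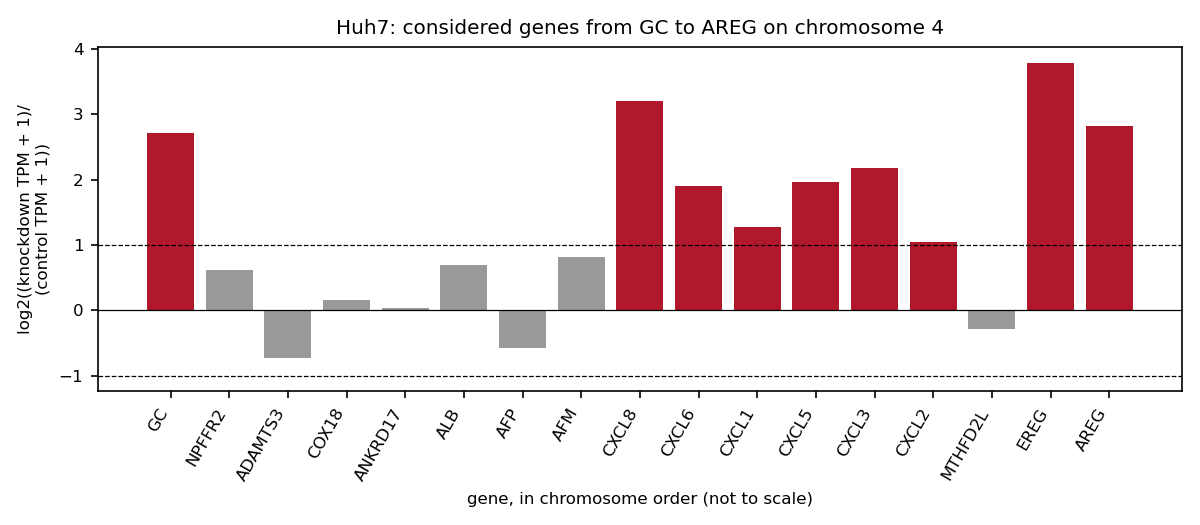
Bars give the log2 ratio of the 17 considered genes from GC to AREG in chromosome order, with dashed lines at the 2-fold limits. Among the genes considered, the 6 chemokine genes from CXCL8 to CXCL2 form an unbroken run above 1, and EREG and AREG stand beyond MTHFD2L.

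The other ligands of the EGF family moved less. HBEGF stood at 5.16 and 8.77, BTC at 1.35 and 2.29, NRG1 at 3.94 and 3.63, and EGF at 1.43 and 0.57 TPM. EGFR, the receptor of most of them, stood at 99.0 and 174 TPM, while ERBB2 (49.7 and 45.5 TPM) and ERBB3 (139 and 127 TPM) lay slightly below their control level. Downstream of the receptors, MAP kinase phosphatases were split. DUSP1, DUSP8 and DUSP10, which act mainly on the stress kinases JNK and p38, stood at 41.3 and 142, 11.96 and 44.7, and 16.7 and 37.5 TPM, whereas DUSP5, a nuclear phosphatase of ERK, stood at 302 and 152 TPM. All 5 Sprouty and SPRED genes, feedback inhibitors of receptor signalling to ERK, lay below 0 with a median of -0.48, SPRY1 at 30.9 and 11.4 TPM and SPRY4 at 27.6 and 13.8 TPM. DUSP10 was at 0.97 with a pseudocount of 5.

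FOS, JUN and Kruppel-like factor genes lay above 0 more often than the 60.2% of all genes, while of 8 CREB genes 5 lay below 0 (median -0.10). All 4 FOS genes lay above 0, FOSL1 at 2.71 and 7.06 TPM and FOSL2 at 4.7 and 10.4 TPM, as did all 3 JUN genes, JUN at 84.2 and 135 TPM. ATF3, an early stress factor, stood at 6.91 and 23.4, BATF at 2.63 and 8.28, MAFK at 15.4 and 45.8, MAF at 10.2 and 28.4, and CREB5 at 3.97 and 12.6 TPM. Of 13 KLF genes considered 10 lay above 0, with a median of 0.53 (0.34 with a pseudocount of 5). Beside 3.10% of all genes, 3 of the 13 were 2-fold higher: KLF5 (67.9 and 171 TPM), KLF6 (23.3 and 57.9 TPM) and KLF4 (1.21 and 6.94 TPM). KLF9 (7.23 and 3.99 TPM) and KLF15 (23.8 and 14.9 TPM), factors of the glucocorticoid response, stood below their control level. With a pseudocount of 5, FOSL1 (0.65), BATF (0.80), KLF4 (0.94) and CREB5 (0.97) were under 2-fold.

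Target genes of YAP and TEAD, the effectors of the Hippo pathway, which reads cell shape and contact, had a median log2 ratio of 0.81. Of 17 considered, 6 were 2-fold higher and none 2-fold lower, against 3.10% and 1.54% of all genes. CYR61, a matricellular protein, stood at 51.3 and 184 TPM, ANKRD1, an ankyrin repeat protein, at 55.7 and 235, IGFBP3 at 8.73 and 40.5, MYOF at 5.54 and 15.2, NUAK2 at 6.07 and 14.5, and F3, tissue factor, at 9.01 and 19.3 TPM. F3 was at 0.94 after rescaling by the median ratio, and F3 (0.79), NUAK2 (0.82) and MYOF (0.93) were under 2-fold with a pseudocount of 5. The factors themselves moved little, YAP1 at 90.6 and 80.6 TPM, WWTR1 at 11.5 and 14.9, and TEAD1 at 26.8 and 34.8 TPM. Of 28 actin cytoskeleton genes 26 lay above 0 with a median of 0.29. The smooth-muscle protein TAGLN was past 2-fold (25.2 and 71.8 TPM), and zyxin, ZYX, stood at 201 and 343 and VCL, vinculin, at 117 and 187 TPM. ITGA5, the fibronectin receptor subunit, stood at 28.2 and 106 TPM. It was the only gene past 2-fold among 11 integrins considered (median 0.07, with 4 below 0). Against the direction of the actin genes, CDC42EP5, an effector of the small GTPase CDC42, stood at 50.2 and 3.31 TPM. Its log2 ratio, -3.57, was among the lowest in the comparison.

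**Figure D3:**
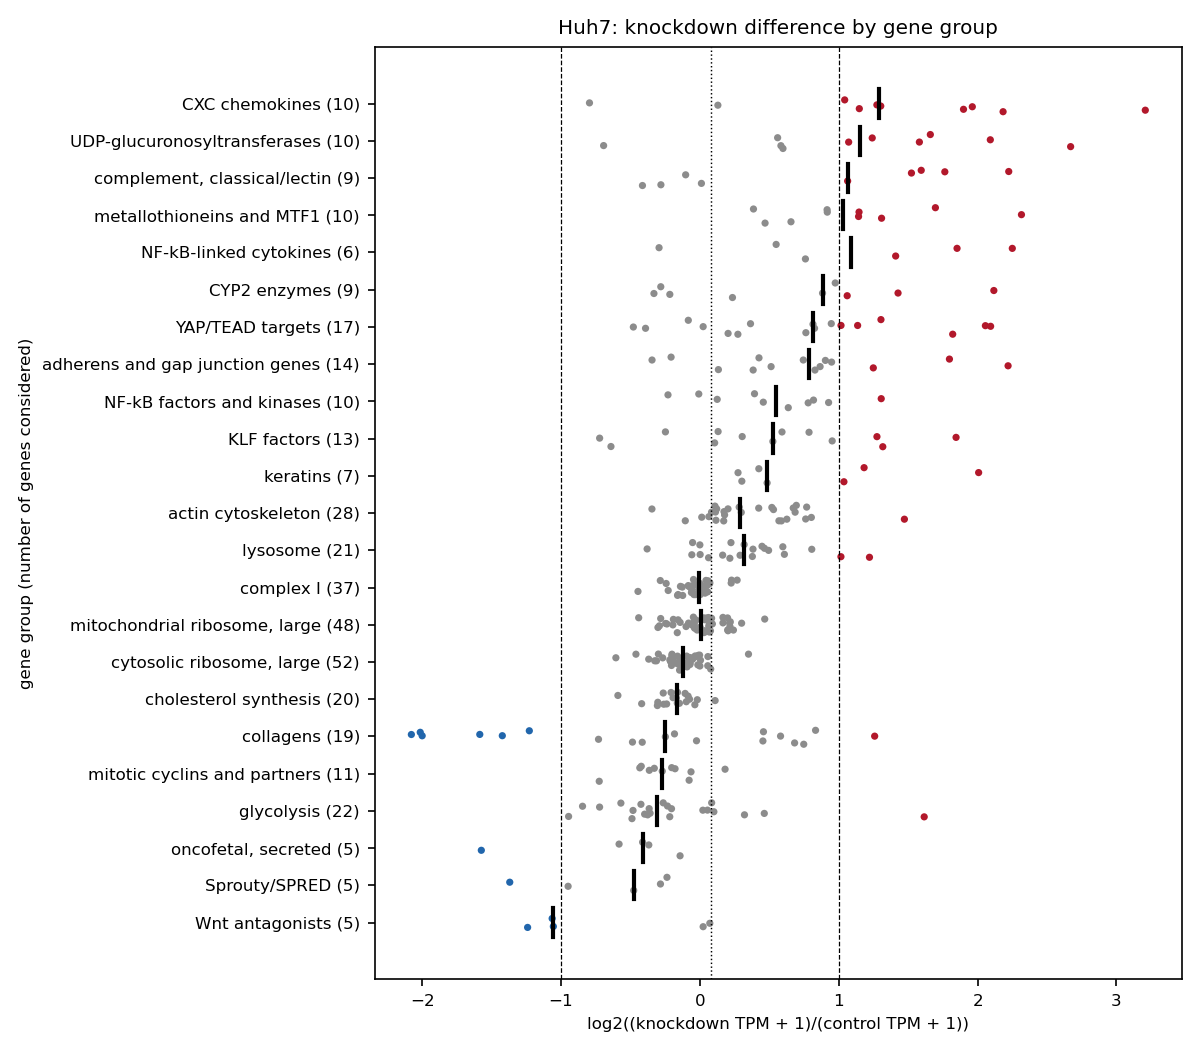
Points are the log2 ratios of the considered members of 23 gene groups, red at or above 1 and blue at or below -1, with a black bar at each group's median and a dotted line at the median of all genes. CXC chemokines have a median of 1.29 and Wnt antagonists of -1.06, while complex I and the mitochondrial ribosome lie at about 0.

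All 9 metallothionein genes considered stood higher in the knockdown library, 5 of them by at least 2-fold, beside 3.10% of all genes. MT2A, the most abundant, stood at 448 and 846 TPM. MT1G stood at 105 and 343, MT1F at 129 and 286, MT1X at 126 and 240, MT1E at 242 and 383, and MT1H at 32.6 and 166 TPM. MT1M stood at 42.7 and 107, MT1A at 33.7 and 44.3, and MT1L at 9.45 and 22.1 TPM. MTF1, the zinc-sensing factor that binds metal response elements, stood at 8.62 and 12.3 TPM, and the zinc carriers had a median of 0.00, with the importer SLC39A10 lower (20.8 and 8.76 TPM) and SLC30A10 at 24.5 and 43.7 TPM. MT1L (0.91) and SLC39A10 (-0.91) were under 2-fold with a pseudocount of 5.

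Complement is the plasma cascade that tags and lyses microbes. Of 28 complement genes considered 8 were 2-fold higher and none 2-fold lower, against 3.10% and 1.54% of all genes. Their median was 0.43, with 20 above 0 and 8 below. Of 9 classical and lectin pathway genes considered, 5 were 2-fold higher and none 2-fold lower (median 1.06, and 0.54 over all listed with no minimum of TPM). C1R and C1S, the proteases of the first complex, stood at 4.54 and 14.9 TPM and at 14.5 and 45.9 TPM. C2, the next protease, stood at 64.2 and 135 TPM, and at 0.99 after rescaling by the median ratio. C4BPA and C4BPB, the chains of an inhibitor of the pathway, stood at 10.2 and 37.1 TPM and at 8.1 and 41.5 TPM. MASP1 (173 and 142 TPM) and MASP2 (2.13 and 1.35 TPM), the lectin pathway proteases, stood lower. C3, the hub of the cascade, stood at 286 and 724 TPM and its inactivating protease CFI at 45.9 and 148 TPM, while C5 stood at 111 and 119 TPM and CFB at 16.8 and 22.4 TPM.

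Of 17 positive acute-phase genes considered 4 were 2-fold higher and 1 was 2-fold lower, against 3.10% and 1.54% of all genes. The median of the 17 was 0.53, and 0.28 both with a pseudocount of 5 and without uncertain symbols. FGL1, a secreted fibrinogen-like protein, stood at 105 and 358 TPM, and CEBPD, a factor of the acute-phase response, at 33.1 and 114 TPM, while SERPINA3, antichymotrypsin, stood at 28.6 and 11.1 TPM and HP, haptoglobin, at 31.9 and 18.6 TPM. SAA1, serum amyloid A, stood at 0.72 and 2.72 TPM (0.43 with a pseudocount of 5). SAA4 was at 30.3 and 176 TPM but another listed gene holds most of its transcript sequence, so its value is uncertain. In coagulation, HABP2, a protease that can activate factor VII, stood at 27.7 and 173 TPM, F12 at 19.5 and 47.3, F11 at 4.05 and 9.04, and KLKB1, prekallikrein, at 0.62 and 2.89 TPM. KLKB1 was at 0.49 with a pseudocount of 5. KNG1, kininogen, the partner of these contact factors, went the other way at 39.6 and 17.1 TPM. The thrombin inhibitors were split, with SERPIND1 at 176 and 347 and SERPINC1, antithrombin, at 79.9 and 46.9 TPM.

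**Figure D4:**
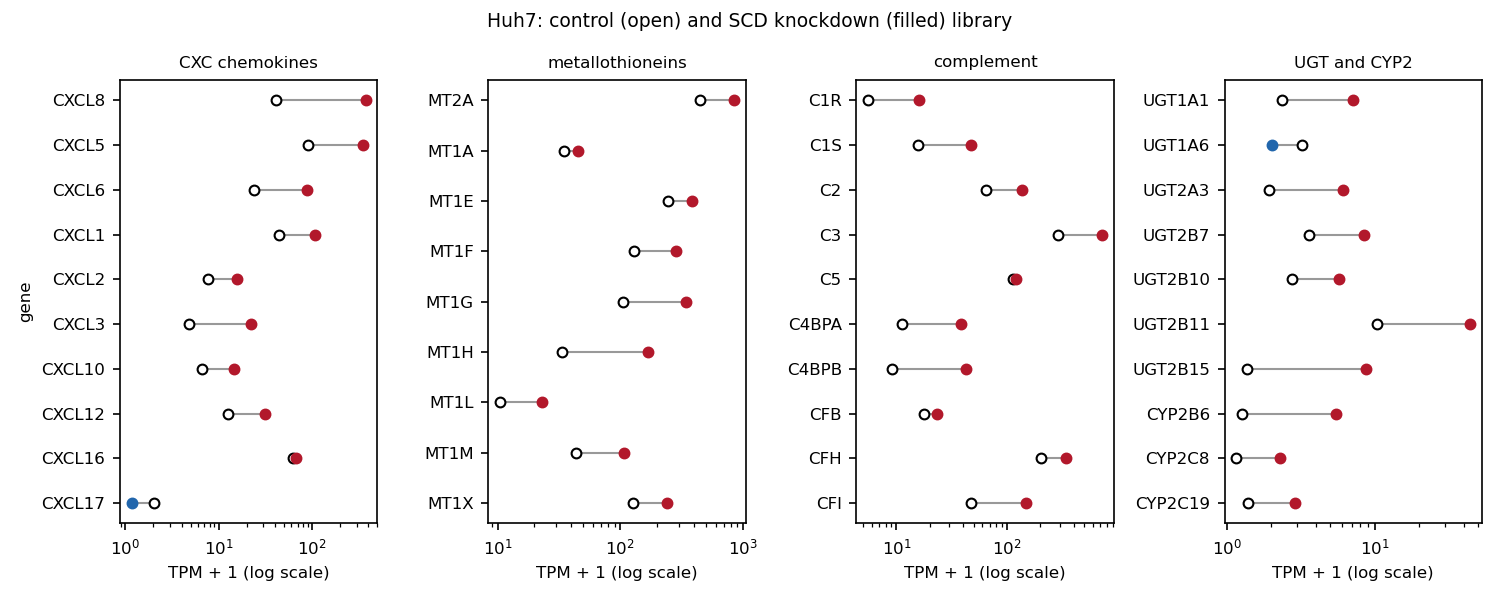
Open circles give the control and filled circles the knockdown library, in TPM + 1 on a log scale, red where the knockdown library is higher and blue where it is lower. The members drawn were chosen from each family, and in these 4 panels the only blue points are CXCL17 and UGT1A6, and CXCL8 and UGT2B15 show among the widest gaps.

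Drug and bile acid handling was higher in several families, mostly from low levels. Of 10 UDP-glucuronosyltransferases considered, enzymes that make bilirubin, steroids and drugs water-soluble, 6 were 2-fold higher, beside 3.10% of all genes. The median of the 10 was 1.16, and 0.64 with a pseudocount of 5. UGT2B11 stood at 9.39 and 43.3, UGT2B15 at 0.37 and 7.72, UGT2A3 at 0.94 and 5.13, UGT2B7 at 2.57 and 7.44, UGT2B10 at 1.75 and 4.78, and UGT1A1, the bilirubin enzyme, at 1.38 and 6.12 TPM. UGT2B4, the most abundant, stood at 66.8 and 102 TPM, and UGT1A6, whose exons are shared within the UGT1A locus and which is uncertain, at 2.25 and 1.01 TPM. With a pseudocount of 5 only UGT2B11 and UGT2B15 stayed past 2-fold. Among the CYP2 oxidases, CYP2B6 stood at 0.27 and 4.51 TPM and CYP2C19 at 0.39 and 1.9 TPM, both 2-fold higher, and both under 2-fold with a pseudocount of 5 (0.85 and 0.36). CYP1A1 stood at 68.2 and 139 TPM and CYP3A5 at 8.57 and 18.4 TPM, both just inside the limit and just outside it after rescaling by the median ratio (0.93 and 0.95). Of 3 receptor and partner genes of these enzymes considered, 2 were 2-fold higher, beside 3.10% of all genes. The lowest of the 3 had a log2 ratio of -0.03. The 2 were AHR at 67.7 and 165 TPM and NR1I2, the pregnane X receptor, at 1.83 and 4.84 TPM. Their part in the enzyme values was not tested. NR1I2 was at 0.98 after rescaling by the median ratio, and with a pseudocount of 5 NR1I2 was at 0.53, CYP3A5 at 0.79 and CYP1A1 at 0.97.

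The aldo-keto reductases AKR1C2, AKR1C3 and AKR1C4, which reduce steroids and bile acid precursors, stood at 35.4 and 82.3, 4.21 and 30.99, and 1.08 and 6.38 TPM, the value of AKR1C2 being uncertain. They were the 3 genes 2-fold higher among 11 aldo-keto reductases, beside 3.10% of all genes, and none was 2-fold lower. The median of the 11 was 0.15, with 4 below 0, and of 12 aldehyde dehydrogenases 9 lay below 0 (median -0.28). BAAT, which conjugates bile acids to taurine and glycine, stood at 0.29 and 8.06 TPM and SLCO1B1, a sinusoidal uptake carrier, at 0.35 and 4.72 TPM. The export pumps ABCC2 and ABCC3 stood at 42.7 and 110 TPM and at 6.05 and 20.98 TPM. The basolateral exporter SLC51A was lower (3.22 and 0.49 TPM). Glutathione S-transferases did not share the direction. Of 15 considered 0 were 2-fold higher and 2 were 2-fold lower, beside 3.10% and 1.54% of all genes. The 2 were GSTA1 at 16.5 and 7.38 TPM and GSTT2, which is uncertain, at 1.93 TPM and listed at 0. The most abundant, GSTP1, stood at 1622 and 1142 TPM. NNMT, which methylates nicotinamide, stood at 1.75 and 11.4 TPM. CPS1, the entry enzyme of the urea cycle, stood at 7.41 and 21.8 TPM, and PCK1, of gluconeogenesis, at 0.13 and 2.33 TPM. Each was the only gene past 2-fold of its group. The 9 urea cycle genes had a median of -0.08, with 5 below 0. The 11 genes grouped with NNMT, sulfotransferases and N-acetyltransferases among them, had a median of 0.02, with 5 below 0. The 6 gluconeogenesis genes had a median of 0.27, with 2 below 0. The 18 hepatocyte transcription factors considered had a median of 0.26, with 11 above 0 and 7 below. They ran from -0.61 to 1.76, the latter CEBPD, which alone was past 2-fold. HNF4A stood at 160 and 192 TPM. With a pseudocount of 5, AKR1C4 (0.90), SLCO1B1 (0.86), PCK1 (0.51), GSTA1 (-0.80) and SLC51A (-0.58) were under 2-fold.

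Keratins and some junction genes were higher. All 7 keratins considered (median 0.48) had a ratio above 0, beside 60.2% of all genes. All 9 desmosome genes did too, with a median of 0.26 and a lowest ratio of 0.0005. KRT19 stood at 274 and 564 TPM, KRT18, the partner of KRT8, at 1548 and 1909 TPM, and KRT23 at 10.2 and 44.1 TPM, and PPL, periplakin, at 2.82 and 12.4 TPM. KRT19 was at 0.96 after rescaling by the median ratio. Of 20 tight junction genes 4 were 2-fold higher and 1 was 2-fold lower, against 3.10% and 1.54% of all genes. Among the 20, 13 lay above 0 and 7 below (median 0.29). CLDN1 stood at 255.6 and 536, OCLN, occludin, at 15.2 and 33.7, CLDN4 at 3.46 and 10.0, and CLDN7 at 4.83 and 13.4 TPM. CLDN2, a pore-forming claudin, stood at 5.05 and 0.79 TPM. CDH17, the liver-intestine cadherin, stood at 13.9 and 68.6, CDH6 at 3.56 and 14.9, CDH1, E-cadherin, at 37.3 and 67.1, EPCAM at 50.1 and 131, and the epithelial factor ELF3 at 20.5 and 50.2 TPM. The mesenchymal filament VIM was higher too, at 467 and 936 TPM. CLDN1 (0.99) and VIM (0.92) were under 2-fold after rescaling by the median ratio, and CLDN4 (0.83), CLDN7 (0.91), OCLN (0.94) and CLDN2 (-0.80) with a pseudocount of 5. KRT19 and EPCAM are also markers of bile duct cells, 6 of whose 7 markers reached 1 TPM with a sum of 515 and 851 TPM, while KRT7 was listed at 0 and at 0.04 TPM. SOX9 of the same markers stood lower, at 171 and 132 TPM, and SPP1 at 16.6 and 17.9 TPM. The part of such cells in these values was not tested.

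Of 37 protease inhibitors considered 5 were 2-fold higher and 1 was 2-fold lower (median 0.21), against 3.10% and 1.54% of all genes. The 2 whey acidic proteins among the 37 had some of the highest ratios of all genes. PI3, elafin, stood at 1.37 and 27.3 TPM (log2 ratio 3.58) and SLPI at 1.65 and 18.9 TPM (2.91). SPINT1, the inhibitor of epithelial surface proteases, stood at 7.94 and 20.3 TPM, and ST14, matriptase, one of its targets, at 2.1 and 10.2 TPM. TIMP2 stood at 3.58 and 11.2 TPM, whereas TIMP1 (26.2 and 21.4 TPM) and TIMP3 (23.8 and 19.2 TPM) did not share the direction. All 3 cystatins lay below 0 (median -0.48), CSTB at 182 and 131 TPM, and the 21 serpins had a median of 0.21. TIMP2 (0.92) and SPINT1 (0.97) were under 2-fold with a pseudocount of 5. The vasoactive peptide genes EDN1, endothelin, and NPPB, the brain natriuretic peptide, stood at 5.21 and 40.9 TPM and at 21.5 and 104 TPM. PAGE1, of the cancer-testis genes, had the highest ratio of all (3.88, from 0.79 to 25.4 TPM), and TMEM45B stood at 2.79 and 32.1 TPM.

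Collagens of cartilage were among the lowest of their family. Of 19 collagen genes considered 6 were 2-fold lower and 1 was 2-fold higher, against 1.54% and 3.10% of all genes, with a median of -0.25. COL2A1, the collagen of cartilage, stood at 265 and 64.8 TPM, COL11A1 at 17.7 and 3.42, COL9A2 at 36.3 and 14.9, and COL9A3 at 11.7 and 2.18 TPM. These 4 genes encode chains of the same heterotypic cartilage fibril. COL1A2 stood at 30.9 and 9.63 and COL26A1 at 39.3 and 14.02 TPM, and COL16A1 was the exception at 0.73 and 3.14 TPM. Among small proteoglycans BGN, biglycan, stood at 16.8 and 0.63 TPM and its relative LUM, lumican, went the other way at 10.8 and 60.04 TPM. SPARC, a collagen-binding glycoprotein, stood at 12.3 and 1.27, VCAN, versican, at 55.8 and 25.04, and the secreted protease HTRA3 at 29.1 and 2.46 TPM. Laminins were split, with LAMA3 at 0.64 and 5.72 and LAMB2 at 30.9 and 64.3 TPM against LAMA4 at 5.4 and 1.92 TPM. COL16A1 (0.51), LAMA3 (0.93) and LAMA4 (-0.59) were under 2-fold with a pseudocount of 5, and LAMB2 (0.96) after rescaling by the median ratio. Over all collagen genes listed, with no minimum of TPM, the median turned to 0.014, and over those of at least 5 TPM it was -0.73. COL1A2 and LUM are also markers of fibroblasts and stellate cells, 5 of whose 11 markers reached 1 TPM with a sum of 62.0 and 79.9 TPM. Of these 5, LUM alone stood higher, while COL1A1 (3.06 and 1.9 TPM), PDGFRA (6.15 and 2.32 TPM) and PDGFRB (10.2 and 4.96 TPM) stood lower with COL1A2. ACTA2, THY1 and DES were listed at 0, and the part of such cells in these values was not tested.

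Oncofetal genes, active in fetal liver and again in liver cancer, were lower with 1 exception among 16 considered. DLK1 stood at 428 and 143 TPM and was past 2-fold, and HMGA2, an architectural chromatin protein, stood at 260 and 133 TPM. LIN28B, which blocks the maturation of let-7 microRNAs, stood at 250 and 169, TRIM71 at 81.3 and 51.0, PEG10 at 734 and 553, MDK at 666 and 499.8, IGF2 at 901 and 698, and GPC3 at 1182 and 1071 TPM. IGF2BP3, an RNA-binding protein, was the exception at 59.4 and 75.9 TPM. MYCN, a transcription factor of embryonic tissues chosen after its value was seen, stood at 85.4 and 22.2 TPM.

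Secreted signals of the Wnt, IGF, TGF-beta and FGF families moved gene by gene. Of 5 Wnt antagonists 3 were 2-fold lower, beside 1.54% of all genes. The median of the 5 was -1.06, and -0.43 with a pseudocount of 5. The 3 were DKK1 (58.6 and 24.2 TPM), its co-receptor KREMEN1 (9.64 and 4.09 TPM) and SFRP1 (2.99 and 0.92 TPM). The Wnt target AXIN2 and the receptor LGR5 stood at 4.22 and 1.85 TPM and at 10.3 and 4.8 TPM, the lowest ratios among 11 Wnt targets and 17 Wnt receptor genes. Of the 11 targets 5 lay above 0 (median -0.07) and none was past 2-fold. Of the IGF-binding proteins, IGFBP2 and IGFBP4 stood lower, at 119 and 54.8 TPM and at 33.6 and 14.95 TPM, and IGFBP1 and IGFBP3 higher, the former at 1.54 and 6.57 TPM. TGFB1 stood at 65.1 and 21.9 TPM and LEFTY1, a nodal inhibitor, at 3.52 and 0.26, while BMP2 stood at 98.6 and 272 and GDF15 at 52.5 and 117 TPM. FGF18 stood at 3.93 and 0.25 TPM. KREMEN1 (-0.69), SFRP1 (-0.43), IGFBP4 (-0.95), IGFBP1 (0.82), LEFTY1 (-0.70) and FGF18 (-0.77) were under 2-fold with a pseudocount of 5. LFNG, a glycosyltransferase that modifies Notch, stood at 12.5 and 1.89 TPM, and S100A9, an inflammatory calcium-binding protein, at 132 and 25.8 TPM.

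**Figure D5:**
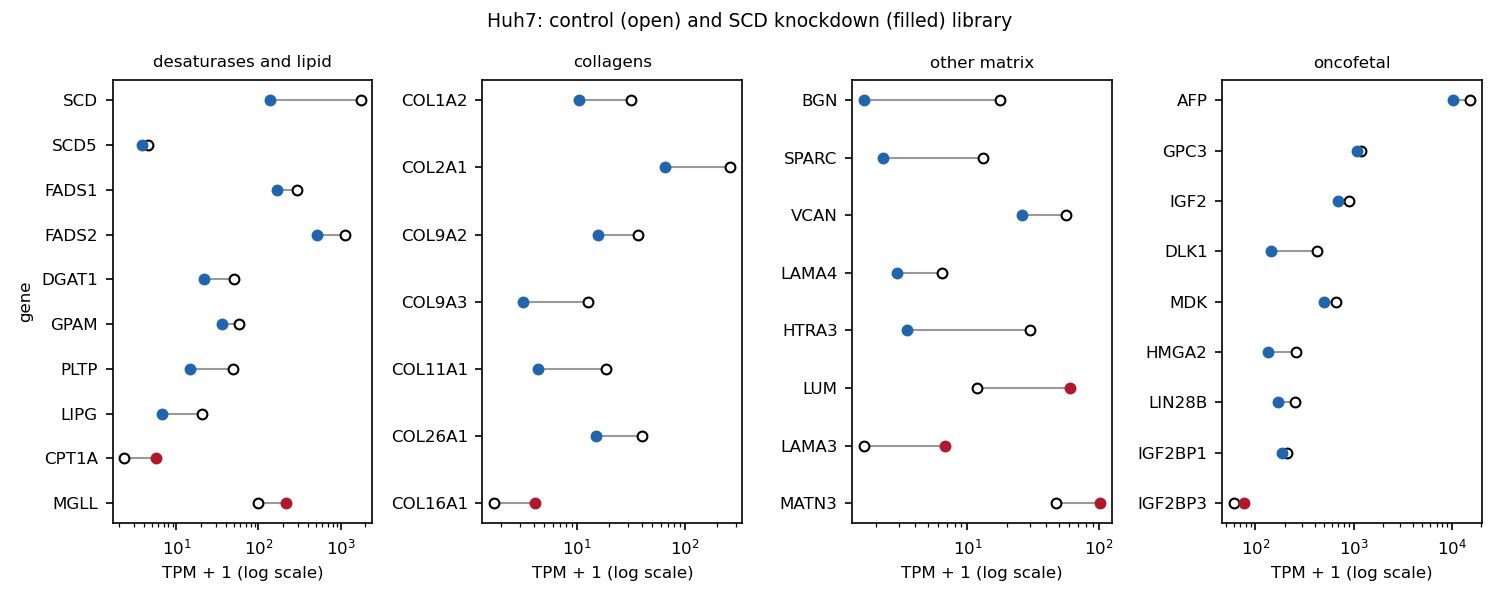
Open circles give the control and filled circles the knockdown library, in TPM + 1 on a log scale, red where the knockdown library is higher and blue where it is lower. The 6 lower collagens, BGN and SPARC lie far to the left of their control level, while COL16A1, LUM, LAMA3 and MATN3 lie to the right.

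Around SCD itself, other acyl desaturases were lower with the exception of FADS3 and most lipid pathways moved little. Of 20 cholesterol synthesis genes 19 lay below 0, beside 39.7% of all genes. Their median was -0.17 and none was past 2-fold. In the PLC/PRF/5 pair the median of these 20 genes was 0.30. FADS2 and FADS1, which desaturate polyunsaturated chains, stood at 1147 and 517 TPM (log2 ratio -1.15) and at 294 and 168 TPM, and FADS3 at 22.4 and 28.4 TPM. In triglyceride synthesis the final enzyme DGAT1 stood at 49.5 and 20.6 TPM and its counterpart DGAT2 at 67.5 and 78.8 TPM. GPAM, the mitochondrial first-step acyltransferase, stood at 57.6 and 34.7 TPM and AGPAT9, an acyltransferase of the endoplasmic reticulum whose symbol matched no transcript and which is uncertain, at 5.08 and 16.9 TPM. MGLL, which cleaves monoglycerides, stood at 97.5 and 217 TPM, and CIDEC, a droplet coat protein, at 4.18 and 10.6 TPM. The droplet coat protein PLIN2 stood at 173 and 221 TPM. CPT1A, the carnitine step of mitochondrial import, stood at 1.32 and 4.65 TPM, and ACAA1, a peroxisomal thiolase, at 109 and 230 TPM, the latter at 0.99 after rescaling by the median ratio. PLTP and LIPG, which remodel lipoproteins, stood at 47.3 and 13.6 TPM and at 19.4 and 5.76 TPM. With a pseudocount of 5, CPT1A (0.61) and CIDEC (0.77) were under 2-fold. Ceramide synthase CERS2 stood at 313 and 548 and ACSL3, which activates fatty acids at droplets, at 237 and 139 TPM.

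Large housekeeping complexes shifted little. Of 52 large-subunit cytosolic ribosomal proteins 6 lay above 0 (median -0.12), and of 32 small-subunit proteins 4 (median -0.15), against 60.2% of all genes. Other complexes went both ways: of 48 large-subunit mitochondrial ribosomal proteins 25 lay above 0 (median 0.01), of 29 small-subunit ones 19 (median 0.04), and of 37 genes of complex I of the respiratory chain 15 (median -0.01). After rescaling by the median ratio the 2 mitochondrial ribosome medians turned to -0.07 and -0.03. COX7C of complex IV was past 2-fold, at 397 and 857 TPM. Glycolysis had a median of -0.31 over 22 genes, with LDHA at 961 and 688 TPM and the lactate exporter SLC16A3 at 244 and 126 TPM, while LDHB, low in the control, stood at 1.95 and 8.04 TPM. Of 21 lysosomal genes 17 lay above 0 (median 0.32), with the cathepsins CTSA at 122 and 247, CTSD at 197 and 298, and CTSS at 3.73 and 10.0 TPM. CTSA was at 0.94 after rescaling by the median ratio, and CTSS (0.78) and LDHB (0.91) were under 2-fold with a pseudocount of 5. Of 452 zinc finger genes with a ZNF symbol 323 lay above 0. Only 2 were 2-fold higher and 2 lower, against 3.10% and 1.54% of all genes.

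Mitotic genes stood slightly lower. Of 11 mitotic cyclins, their partners and regulators 1 lay above 0 (median -0.27), and of 15 kinetochore genes 2 (median -0.25). PTTG1, securin, stood at 307 and 185, CDC20, an activator of the anaphase-promoting complex, at 315 and 233, CCNB1 at 219 and 190, and TOP2A at 370 and 258 TPM. None of these was past 2-fold. Of 23 genes of the entry into S phase 14 lay above 0 and 9 below (median 0.23). Among these 23 the factor E2F1 alone was past 2-fold, at 89.0 and 43.3 TPM. With a pseudocount of 5 it was at -0.96.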

How the data were processed

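RNA was extracted with TRIzol and libraries were prepared by Illumina protocols, per the labels' protocols. The authors deposited 1 gene table per library that lists TPM to 2 decimals for each symbol. Cutadapt, RSEM 1.2.21 and the build hg19 are listed, with no role or order, in the submitters' processing notes. Which aligner, annotation and strandedness were used is not given in the sources used here, so reads of overlapping and antisense genes may not have been told apart. RSEM shares reads between similar genes by a likelihood model. TPM sets every library to the same total, so abundant transcripts that move shift all others, and depth is unknown.

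Groups were taken from the sample titles. Ratios were computed as log2((knockdown TPM + 1)/(control TPM + 1)) with Python 3.11.15, pandas 2.3.3 and numpy 2.4.6, over genes with TPM of at least 1 in either Huh7 library, and plots were drawn with matplotlib 3.10.9. With 1 library per group no test, standard error or p-value was computed. The genes considered, the 68 gene lists, the 6 marker lists and the rule for named genes were chosen with earlier results of these data known. A list is described by its counts and its median beside those of all genes. Named genes were SCD and SCD5, the 20 highest and 20 lowest ratios, the 15 largest gains and losses in TPM, list members past 2-fold or else the 4 with the largest ratio either way, and members of list roles with at most 12 measured genes. Genes named outside it, as neighbours by position, at a threshold or as familiar members of a list, were chosen after their values were seen. Some genes that the rule names are not reported here.

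A gene was called uncertain where over 50% of the 31-base words of its transcript occur in another listed gene (GENCODE 29), or where its symbol matched no transcript (22701 of 25343 symbols, 89.6%, matched). Promoters and gene order are RefSeq's (GRCh38.p14), another build than the authors', so no coordinates were joined to the tables. Alternatives tried were a pseudocount of 0.1 or 5, a TPM minimum of 5 or none, rescaling by the median ratio or after leaving out the 20 most abundant genes, and leaving out uncertain symbols.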

Additional observations from a re-analysis of the deposited data

Results flagged for a closer look

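In 5 genes the Huh7 pair and the PLC/PRF/5 pair moved past 2-fold in opposite directions. There is 1 library per group, so this difference between the lines was not tested. AKR1C3, a steroid-reducing aldo-keto reductase, had a log2 ratio of 2.62 in Huh7 (4.21 and 30.99 TPM) and of -1.01 in PLC/PRF/5 (72.0 and 35.2 TPM). IGFBP3, a carrier of insulin-like growth factors, had 2.09 in Huh7 and -1.96 in PLC/PRF/5 (81.4 and 20.2 TPM). NUPR1, a stress-induced nuclear protein, had 1.60 in Huh7 (3.36 and 12.2 TPM) and -1.75 in PLC/PRF/5 (132 and 38.7 TPM). ADH1C, an alcohol dehydrogenase, had 1.59 in Huh7 (0.12 and 2.38 TPM) and -1.83 in PLC/PRF/5 (5.81 and 0.91 TPM). DKK1, a secreted Wnt antagonist, had -1.24 in Huh7 and 1.11 in PLC/PRF/5 (43.0 and 94.0 TPM). The higher control level was that of PLC/PRF/5 for AKR1C3, IGFBP3, NUPR1 and ADH1C, and that of Huh7 for DKK1. With a pseudocount of 5, ADH1C was under 2-fold in both lines (0.53 and -0.87) and AKR1C3 in PLC/PRF/5 (-0.94), where it had been at the limit, and the other 3 genes stayed past 2-fold in both.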

How the results depend on the processing

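No paired analysis was possible because each group has 1 library. SCD had a log2 ratio between -3.75 and -3.63 under all 7 alternatives. The counts of 2-fold higher and lower genes were 695 and 370 with a pseudocount of 0.1, and 155 and 92 with one of 5, where 54 rather than 83 of 191 group medians lay at least 0.2 from the median of all genes. After rescaling by the median ratio they were 349 and 242, and the higher genes made 59.1% of those past 2-fold rather than 66.9%. Of 246 named genes and list members past 2-fold, 102 were under 2-fold with the pseudocount of 5, mostly genes of low TPM, as were 22 after rescaling by the median ratio and 4 after rescaling without the 20 most abundant genes. Among the 83 medians at least 0.2 from the median of all genes, these changed sign or came to 0. With a minimum of 5 TPM, the diacylglycerol acyltransferases were at 0.22, the glutathione S-transferases at 0.011 and the hypoxia targets at 0.013. Without a minimum, the fatty acid transporters were at -0.043, the collagens at 0.014 and the prostaglandin synthesis genes at 0.0. Without uncertain symbols, the glutathione S-transferases were at 0.011. These settings test fewer or more genes, and no cause beyond that was tested. Medians closer to that of all genes changed sign 61 times over the 7 alternatives, 29 of them after rescaling by the median ratio. Depth is unknown, so low-TPM ratios carry an error that cannot be given.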

Other observations

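Interferon-stimulated genes were split in the knockdown library. Of 23 considered, 2 were 2-fold higher and 1 was 2-fold lower (median 0.24), against 3.10% and 1.54% of all genes. GBP1, a guanylate-binding GTPase, stood at 1.72 and 9.89 TPM and GBP2 at 14.9 and 48.6 TPM. The lower gene, UBE2L6, the conjugating enzyme for ISG15, stood at 74.2 and 28.6 TPM. In antigen presentation 8 of 11 genes lay above 0 (median 0.56), beside 60.2% of all genes, with the immunoproteasome subunit PSMB8 at 1.29 and 5.49 TPM and B2M at 475 and 728 TPM. The median was 0.22, and PSMB8 was at 0.74, with a pseudocount of 5. HLA-E was an exception at 19.9 and 12.8 TPM. SOCS1, an inhibitor of cytokine receptors chosen after its value was seen, stood at 20.8 and 4.4 TPM.

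Of 206 solute carriers considered, 7 were 2-fold higher (3.40%, beside 3.10% of all genes) and 9 were 2-fold lower (4.37%, beside 1.54%), and 11 of these 16 were under 2-fold with a pseudocount of 5. The choline transporter-like genes SLC44A2 and SLC44A3 stood at 14.7 and 4.36 TPM and at 14.1 and 38.1 TPM. The amino acid carrier SLC6A14 stood at 65.0 and 25.1 TPM, the cystine carrier SLC7A11 at 24.4 and 10.7 (-0.90 with a pseudocount of 5), and the borate transporter relative SLC4A11 at 18.6 and 46.6 TPM. Small nucleolar RNA genes, which a library of longer fragments measures poorly, had a median of 0.46 over 34 genes, against 0.13 over 403 long noncoding RNA genes and 0.07 over 11560 protein-coding genes. CEACAM1, an adhesion receptor, stood at 137 and 45.3 TPM.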
